A study of Mus musculus with 2 samples.

Results

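The replication-independent histone variants are histones made outside the bulk supply of S phase, and 10 genes for them were followed in mouse embryonic stem cells (mESCs) with and without USP21 knockdown. The members were the rows whose gene symbol was H1f0, H1fx, H2afx, H2afy, H2afy2, H2afz, H2afv, H3f3a, H3f3b or Cenpa, and all 10 were found among 23889 symbols. E14 mESCs, a line derived from a mouse strain that the labels spell 19/Ola, were grown without feeders on gelatin in serum medium with LIF. They received a control shRNA (genotype label Normal) or an USP21 shRNA (genotype label USP21 knockdown, here the knockdown library) by transfection and were collected after 3 days. Each group is 1 library of total RNA from a transfected culture, so a difference here has no replicate check and no test was made. The labels do not say which USP21 shRNA was used. The question behind the knockdown is what USP21 does in these cells. USP21 is a deubiquitinase, an enzyme that removes ubiquitin from proteins, and its known substrates include histone H2A.

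Most histone mRNA comes from clustered genes that are switched on in S phase and give transcripts ending in a stem-loop in place of a poly(A) tail. Replication-independent variants are instead encoded by single genes, mostly with introns and poly(A) tails, and are made through the cell cycle or in a phase of their own. They replace the bulk histones at chosen places, H3.3 and H2A.Z at promoters and enhancers, CENP-A at centromeres and macroH2A on silent chromatin, whereas H1.0 and H1X bind the linker DNA between nucleosomes.

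Usp21 itself had an FPKM (fragments scaled to transcript length and to the mapped fragments of the library) of 26.2 in control cells and 3.49 after knockdown, which left 13.3% of its level. The 8 embryonic stem cell markers (Pou5f1, Sox2, Nanog, Zfp42, Esrrb, Klf4, Dppa5a and Tdgf1) were present in both libraries. The lowest was Klf4, with an FPKM of 85.0 in the control library and 76.5 in the knockdown library. Their summed FPKM was 4275 in control and 3217 in knockdown. All 8 were lower in the knockdown library, with a median log2 ratio of -0.26. Nanog, the 1 marker at least 1.5-fold lower, had 467 and 258 (log2 ratio -0.86). Of 8 fibroblast markers only Thy1, which is not confined to fibroblasts, reached an FPKM of 1, at 17.3 in control and 5.29 in knockdown (log2 ratio -1.69). The collagen genes Col1a1 (0.801 and 0.560) and Col1a2 (0.113 and 0.167) were low, and the collagen gene Col3a1 and the proteoglycan genes Dcn and Lum were below 0.1 in both. The 8 primitive endoderm markers summed to 82.2 and 77.3. Over all symbols the FPKM summed to 613617 for control and 543206 for knockdown, and steps of 1 fragment among the lowest values gave a depth for control about 1.24 times that of knockdown.

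All 10 variants had a lower FPKM with the USP21 shRNA, and the differences ran from nearly none for H2afv to 1.77-fold for H1fx. Of the 11927 genes with an FPKM of at least 1 in at least 1 library 49.6% were lower, and of those with an FPKM of at least 20, where all variants lie, 59.3%. Setting the sums of the libraries equal adds about 0.18 to the log2 ratio of each variant. On that scale 7 of the 10 were lower and 3 higher. Equal sums raise the other genes as well, so the 49.6% and 59.3% do not apply there. On that scale 3.97% of tested genes were at least 1.5-fold lower and 14.1% higher. With the median log2 ratio of the tested genes set to 0 instead, all 10 variants were lower. Differences are given as the log2 ratio, log2((FPKM knockdown + 0.1)/(FPKM control + 0.1)), which is negative where the knockdown library was lower. Their median was -0.37 over the variants, against 0.0031 over the 11927 genes with an FPKM of at least 1 in at least 1 library. H1fx and H2afz, 2 of the 10, were at least 1.5-fold lower, compared with 6.46% of all these genes, and none of the 10 was 1.5-fold higher, compared with 7.77%. At a fold of 2 none of the 10 was lower or higher, where 2.03% of all genes were lower and 2.3% higher. Because every variant had an FPKM of at least 20, the 4497 genes at that level are a closer background, and of these 4.49% were at least 1.5-fold lower and 3.8% higher, with a median log2 ratio of -0.06. Counts this small among 10 genes are a description of these 2 libraries.

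**Figure D1:**
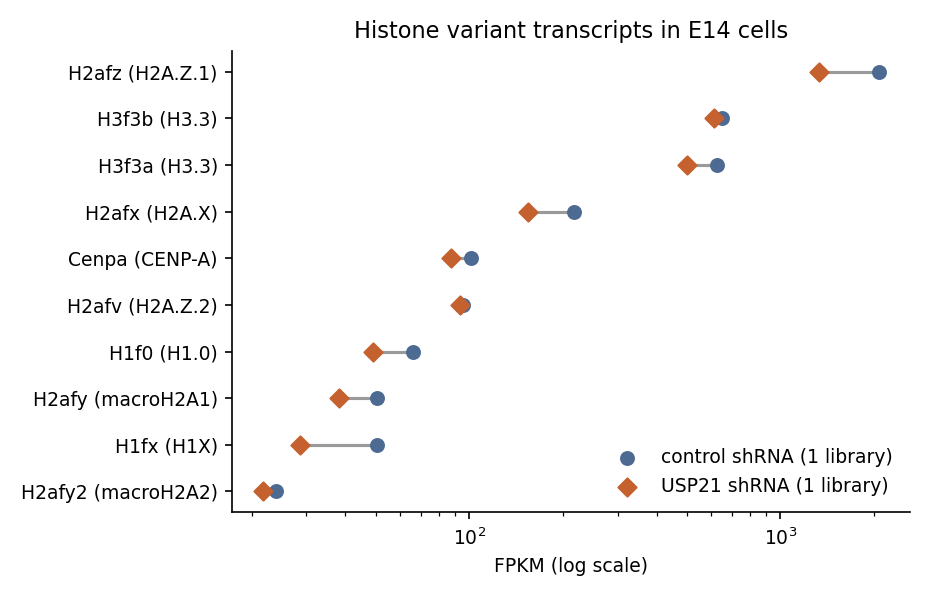
FPKM on a log axis of each of the 10 histone variant genes in the control shRNA library (circles) and the USP21 shRNA library (diamonds), 1 point per library with no error bar because each group has 1 library. H2afz lies highest at 2072 and 1328, H2afy2 lowest at 24.0 and 21.8, and each diamond lies left of its circle on the deposited scale, 3 of them (H2afv, H3f3b and H2afy2) lying right of it with equal sums.

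**Figure D2:**
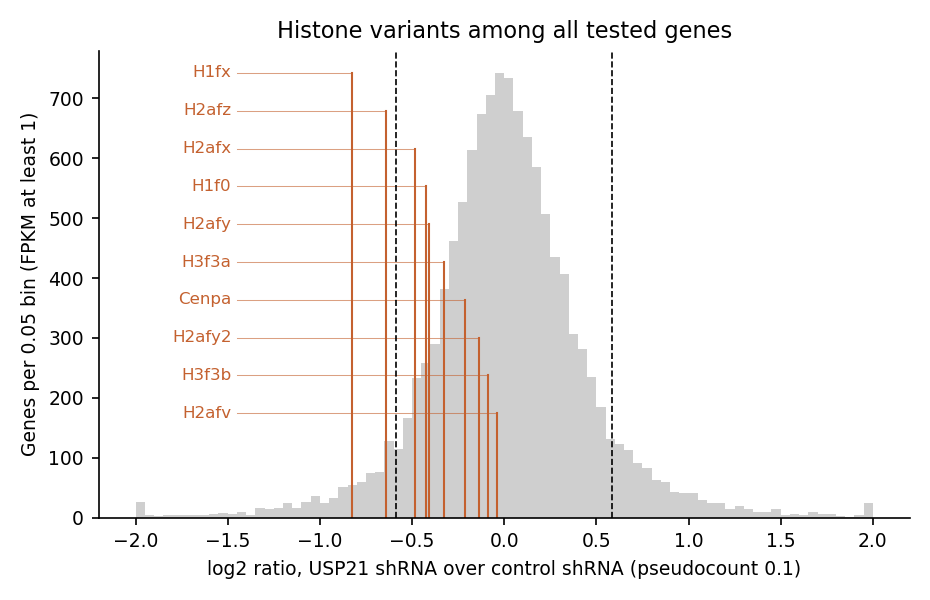
Histogram of the log2 ratio of the 11927 genes with an FPKM of at least 1, values beyond the axis being stacked at its ends, with a line for each variant and dashed lines at 1.5-fold. H1fx at -0.82 and H2afz at -0.64 lie past the lower dashed line and the other 8 between it and 0 on the deposited scale, 3 of which lie above 0 with equal sums.

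The variants spanned a wide range of levels, with an 86.4-fold distance between the highest and the lowest in the control library and 61.0-fold in the other. Their FPKM summed to 3953 in the control library and 2913 in the knockdown library. H2afz alone made up 52.4% of this sum in control and 45.6% in knockdown, and 71.4% of the difference between the sums was H2afz. In rank among all symbols H2afz stood 48th and 58th from the top, H3f3b 140th and 127th and H3f3a 143rd and 147th.

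H2afz and H2afv encode the 2 forms of H2A.Z, an H2A variant found in the nucleosomes around transcription start sites. H2afz (chr3:137864487-137866922, plus strand, GRCm38) has 5 exons, and its FPKM was 2072 in control cells and 1328 after knockdown, 1.56-fold lower with a log2 ratio of -0.64. Of all tested genes 5.33% had a lower log2 ratio. H2afv (chr11:6427229-6444443, minus strand) had an FPKM of 95.6 and 93.1, a log2 ratio of -0.04 that turns to 0.14 with equal sums. The pair thus differed from each other in size of change, and H2afz was 21.7 times as high as H2afv in the control library and 14.3 times in the knockdown library. This ratio is taken within a library and is not touched by scaling between libraries. The share of H2afv in the FPKM of the pair was 4.41% and 6.55%, and the summed FPKM of the pair was 2167 and 1422.

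Translated from the annotation, the H2afz and H2afv proteins are each 128 residues with the first methionine, and 3 residues differ (97.7% identical), so the genes give nearly 1 protein. Their coding sequences differ at 81 of 387 bases, 70 of them at the last base of a codon. The first 120 coding bases are shown to make that visible, with the 28 bases that differ within the pair in capitals.
H2afz: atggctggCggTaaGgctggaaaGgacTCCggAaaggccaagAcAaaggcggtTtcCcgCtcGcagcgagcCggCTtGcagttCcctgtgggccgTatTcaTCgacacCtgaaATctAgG
H2afv: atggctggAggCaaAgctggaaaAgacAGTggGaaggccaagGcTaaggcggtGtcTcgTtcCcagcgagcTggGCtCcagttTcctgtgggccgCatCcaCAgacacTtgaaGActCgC
Of the 31-base words of the H2afz transcript 34.5% also occur in other annotated genes, nearly all of them in Gm8203, and none of these genes is listed in the files, so how their fragments were assigned is unknown. For H2afv the share was 0.998%.

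Of the 15 genes for H2A.Z exchange found in the files (the SRCAP, p400/TIP60 and INO80 complexes and the chaperone Anp32e), 10 were lower and 5 higher and none passed 1.5-fold, with a median log2 ratio of -0.06, or 0.12 with equal sums. Trrap, the scaffold of the p400/TIP60 complex, had an FPKM of 17.2 and 23.8 (log2 ratio 0.47), and Epc1 of the same complex had 7.75 and 9.79 (0.33). Anp32e, which removes H2A.Z from nucleosomes, had 101 and 72.9 (-0.47), and the INO80 subunit Actr5 had 17.6 and 12.5 (-0.49). Within this list the highest and lowest members lay on opposite sides of 0. With equal sums 1 gene of the list was at least 1.5-fold higher. With transcript length corrected, Trrap was at 0.13 and Anp32e, at -0.49, was level with H2afz.

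H2afx encodes H2A.X, whose tail is phosphorylated around DNA breaks. H2afx (chr9:44334694-44336077, plus strand, 1 exon) had an FPKM of 216 in the control library and 155 in the other, 1.40-fold lower with a log2 ratio of -0.48, and 9.21% of tested genes lay lower. Its transcript shares 8.86% of its 31-base words with clustered H2A genes, and when these were added to it the log2 ratio was -0.50. H2afx is known for giving both a short transcript that ends in the stem-loop of the S-phase histones and a longer poly(A) form. In the annotated transcript the stem-loop was found 47 bases after the stop codon, 822 bases before the annotated end, and in no other of the 10 variants. It is printed with the stem and loop in capitals.
H2afx: aaaGGCCCTTTTAAGGGCCacca
The same pattern occurred in 42 of 50 replication-dependent histone genes with annotated sequence after the stop codon and in 5 of 11072 other coding genes.

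Of the 16 genes that write, read or erase the H2A.X damage signal, 10 were lower and 6 higher. Their median log2 ratio was -0.02, or 0.16 with equal sums and -0.14 with length corrected. Trp53bp1, which encodes the reader 53BP1, had an FPKM of 7.70 and 10.3 (log2 ratio 0.42, or 0.15 with length corrected), and the H2A.X tyrosine kinase gene Baz1b had 28.8 and 33.6 (0.22). Mre11a, of the complex that senses breaks, had a log2 ratio of -0.44 from an FPKM of 27.1 in control, and the phosphatase gene Ppm1d had 23.5 and 19.8 (-0.25). The only member past 1.5-fold was the phosphatase gene Eya1, at the low FPKM of 1.29 and 0.751. With equal sums 0 were at least 1.5-fold lower and 1 was higher, and with a pseudocount of 1 none passed. The kinase genes Atm, Atr and Prkdc had log2 ratios of 0.15, -0.03 and -0.14, and -0.13, -0.26 and -0.48 with length corrected.

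H2afy and H2afy2 encode macroH2A1 and macroH2A2, H2A variants with a large extra domain that mark silent chromatin and increase when stem cells differentiate. H2afy (chr13:56073619-56136361, minus strand, 9 exons) had an FPKM of 50.7 and 38.2, 1.33-fold lower with a log2 ratio of -0.41. H2afy2 (chr10:61738665-61784147, minus strand, 9 exons) was the lowest of the variants, with an FPKM of 24.0 and 21.8 and a log2 ratio of -0.14, or 0.037 with equal sums. H2afy was 2.11 times as high as H2afy2 in the control library and 1.75 times in the other, and the pair summed to 74.7 and 60.0. Of the 8 primitive endoderm markers 4 were lower and 4 higher, from -1.20 for Sox7 to 0.75 for Pdgfra, with a median log2 ratio of -0.08, or 0.094 with equal sums, and their part in these values was not tested.

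Of 8 genes of macroH2A partners, 3 were lower and 5 higher and none passed 1.5-fold, with a median log2 ratio of 0.02, or -0.0076 with length corrected and 0.20 with equal sums, where 1 passed 1.5-fold. Spop, whose product together with Cul3 ubiquitinates macroH2A, had an FPKM of 35.5 and 47.2 (log2 ratio 0.41), and Atrx, a remodeller that keeps macroH2A off some loci, had 15.96 and 20.4 (0.35, or 0.06 with length corrected). Parg, which breaks down the poly(ADP-ribose) that macroH2A1 can bind, had 24.9 and 19.9 (-0.32), and the related hydrolase gene Adprhl2 had 33.5 and 31.9 (-0.07).

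Since USP21 acts on ubiquitin at lysine 119 of H2A, the region around that residue was compared between the H2A variants. The 45 coding bases around it are shown for the clustered gene Hist1h2ab and the 5 variants, with the codon that aligns with lysine 119 of canonical H2A in capitals, counting residues without the first methionine.
Hist1h2ab: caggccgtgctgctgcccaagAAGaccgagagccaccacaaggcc
H2afx: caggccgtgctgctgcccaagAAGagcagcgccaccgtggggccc
H2afz: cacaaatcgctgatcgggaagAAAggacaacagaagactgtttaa
H2afv: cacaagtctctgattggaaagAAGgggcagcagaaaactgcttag
H2afy: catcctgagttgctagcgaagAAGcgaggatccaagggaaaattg
H2afy2: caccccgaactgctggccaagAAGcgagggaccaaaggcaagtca
All 5 variants have a lysine codon at the aligned place, at residue 119 in H2afx, 121 in H2afz and H2afv and 116 in H2afy and H2afy2. The bases beyond it differ from the clustered gene, and over the whole protein H2afx is 90.8% and H2afz 62.4% identical to Hist1h2ab. This is sequence alone, and ubiquitin was not measured in these libraries.

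H3f3a and H3f3b encode the same protein, H3.3, the H3 form deposited in active genes at any time of the cell cycle. H3f3a (chr1:180800832-180813943, minus strand, 4 exons) had an FPKM of 627 in the control library and 499 in the knockdown library, 1.255-fold lower with a log2 ratio of -0.33. H3f3b (chr11:116021912-116027962, minus strand, 4 exons) had 650 and 612, a log2 ratio of -0.09, or 0.089 with equal sums. The genes were nearly level in the control library, where H3f3b was 1.04 times H3f3a, and the ratio was 1.23 in the knockdown library. H3f3b therefore gave 50.9% and 55.1% of the H3.3 FPKM, and the sum of both genes was 1277 and 1112, a log2 ratio of -0.20.

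The proteins are identical over 136 residues with the first methionine, yet 95 of 411 coding bases (23.1%) differ, 81 of them at the last base of a codon. The first 120 coding bases show how differently the genes spell 1 protein, with the 24 differing bases in capitals.
H3f3a: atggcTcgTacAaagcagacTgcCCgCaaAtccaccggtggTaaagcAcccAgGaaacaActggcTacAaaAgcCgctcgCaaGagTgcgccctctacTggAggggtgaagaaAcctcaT
H3f3b: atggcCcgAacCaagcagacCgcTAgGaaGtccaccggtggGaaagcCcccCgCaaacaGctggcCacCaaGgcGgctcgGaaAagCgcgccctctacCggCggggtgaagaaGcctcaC
Both genes have processed copies elsewhere in the genome, and 20.2% of the 31-base words of H3f3a and 17.2% of those of H3f3b occur in other annotated genes. Of these only Gm12657 is listed in the files, and adding it to H3f3a left the log2 ratio at -0.33.

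Among the 10 genes of H3.3 chaperones (the HIRA and DAXX-ATRX routes with Asf1a, Asf1b, Dek and Morc3), 8 were higher and 2 lower, with a median log2 ratio of 0.29, or 0.47 with equal sums. Ubn2, a subunit of the HIRA complex, had an FPKM of 3.96 and 6.23 (log2 ratio 0.64) and was the 1 gene of the list past 1.5-fold, a count that was 0 with length corrected or a pseudocount of 1 and 3 with equal sums. Daxx had 24.7 and 33.6 (0.44). Asf1b, a chaperone for new H3 and H4, had 40.5 and 39.5 (-0.03), and Dek had 87.1 and 82.9 (-0.07). These transcripts are long, with a median of 4199 bases, and with transcript length corrected their median log2 ratio was 0.11.

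Cenpa encodes CENP-A, the H3 form that marks the centromere and is loaded after mitosis, and its protein is 45.0% identical to H3.3 over 129 aligned residues. Cenpa (chr5:30666777-30674830, plus strand, 5 exons) had an FPKM of 101 in the control library and 87.6 in the other, 1.16-fold lower with a log2 ratio of -0.21, and 25.6% of tested genes lay lower. Of 18 genes for CENP-A deposition and the inner centromere, 11 were lower and 7 higher, with a median log2 ratio of -0.09, or 0.083 with equal sums. Cenpk, the 1 gene of this list past 1.5-fold, had an FPKM of 13.3 and 8.65 (log2 ratio -0.62). That count was 0 with a pseudocount of 1, with equal sums and with length corrected. Cenpq had 12.9 and 9.30 (-0.47), and both genes are of the inner kinetochore. Cenpo had 4.77 and 6.01 (0.33) and Cenpm 55.4 and 66.8 (0.27). Hjurp, the chaperone that loads CENP-A, had 9.79 and 8.03 (-0.28). Cenpa thus lay within the range of its partners.

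Transcription of Cenpa peaks in G2 phase, and of 15 G2 and M transcripts 12 were lower and 3 higher, with a median log2 ratio of -0.24, or -0.06 with equal sums, and a summed FPKM of 1787 and 1483. Cdk1, the kinase that drives entry into mitosis, had an FPKM of 83.3 and 52.0 (log2 ratio -0.68, which is within 1.5-fold with equal sums), and the kinetochore gene Cenpf had 29.1 and 20.8 (-0.48). Mki67 had 27.5 and 32.3 (0.23) and Cenpe 10.6 and 12.1 (0.19). With transcript length corrected the log2 ratios of Mki67 and Cenpe were -0.05 and -0.03. Those of Cdk1 and Cenpf were then -0.76 and -0.80, and 2 genes of the list were at least 1.5-fold lower. The part of these transcripts in the Cenpa value was not tested.

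H1f0 and H1fx encode the linker histones H1.0, known from resting and differentiated cells, and H1X. H1fx (chr6:87980421-87981637, minus strand, 1 exon) showed the largest difference of the 10, with an FPKM of 50.6 in the control library and 28.5 in the other, 1.77-fold lower with a log2 ratio of -0.82. Of tested genes 3.18% lay lower, and H1fx remained past 1.5-fold with equal sums (-0.65) and with transcript length corrected (-0.69). H1f0 (chr15:79028450-79030504, plus strand, 1 exon) had an FPKM of 65.8 and 49.0, 1.34-fold lower with a log2 ratio of -0.43. H1f0 was 1.30 times as high as H1fx in the control library and 1.72 times in the other, and the pair summed to 116 and 77.5. The proteins are 38.7% identical over 163 aligned residues, and neither transcript shares a 31-base word with another annotated gene.

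The clustered linker H1 genes did not all lie on the same side. Hist1h1c had an FPKM of 11.7 and 15.5, a log2 ratio of 0.40. Hist1h1a (1.63 and 0.879), Hist1h1d (1.93 and 1.05) and Hist1h1e (1.16 and 0.208) were lower by over 1.5-fold but at levels near an FPKM of 1. Because Hist1h1c dominated, the 5 clustered H1 genes summed to 17.5 and 18.4. The variants H1f0 and H1fx held 87.0% of the summed H1 FPKM in control and 80.8% in knockdown. These shares count RNA as it was captured, and whether RNA was selected for poly(A) is not stated.

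**Figure D3:**
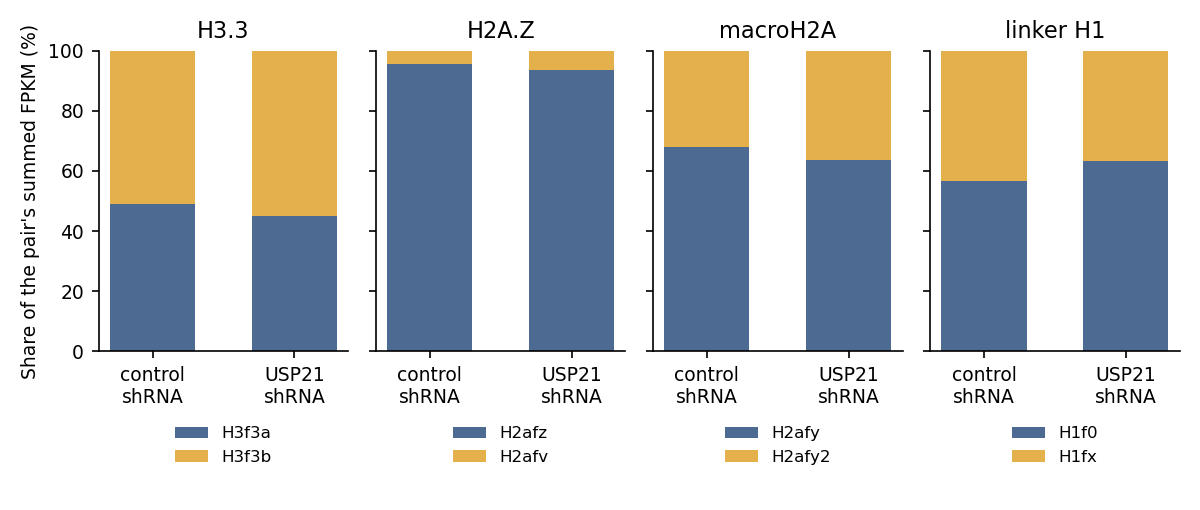
Stacked bars of the share (percent) of the summed FPKM of a pair that each gene gave, for the H3.3, H2A.Z, macroH2A and linker H1 pairs, 1 bar per library. The upper segment, H3f3b, had 50.9% and 55.1%, and the upper segments in the other pairs were H2afv 4.41% and 6.55%, H2afy2 32.1% and 36.3%, and H1fx 43.5% and 36.8% in the control and the knockdown library.

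In each pair, the gene with the log2 ratio nearer to 0 held a larger share in the knockdown library than in control. These genes were H2afv, H2afy2, H3f3b and H1f0. The gain in share follows by arithmetic, because all variants had a negative log2 ratio on the deposited scale. With transcript length corrected the log2 ratio of H2afv to H2afz was still 0.53 higher in the knockdown library. That of H2afy2 to H2afy was 0.26 higher and that of H3f3b to H3f3a 0.28 higher. For H1fx to H1f0 the difference was -0.31, a sign that depends only on which gene is written first. No replicate gives the spread of such a ratio.

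The promoters of H2afz and H1fx, the 2 variants past 1.5-fold, are shown because these genes moved furthest. Both windows hold 250 bases before and 50 after the RefSeq start (GRCm38.p6), with CCAAT or its complement ATTGG in capitals. H2afz is at chr3:137864237-137864536 on the plus strand, and H1fx (RefSeq symbol H1f10) at chr6:87981433-87981732 on the minus strand.
H2afz: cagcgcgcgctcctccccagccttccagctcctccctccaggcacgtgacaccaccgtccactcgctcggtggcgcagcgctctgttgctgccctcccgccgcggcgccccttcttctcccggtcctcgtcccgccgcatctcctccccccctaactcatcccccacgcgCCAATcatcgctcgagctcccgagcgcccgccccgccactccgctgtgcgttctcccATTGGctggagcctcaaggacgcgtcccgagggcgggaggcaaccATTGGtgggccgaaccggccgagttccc
H1fx: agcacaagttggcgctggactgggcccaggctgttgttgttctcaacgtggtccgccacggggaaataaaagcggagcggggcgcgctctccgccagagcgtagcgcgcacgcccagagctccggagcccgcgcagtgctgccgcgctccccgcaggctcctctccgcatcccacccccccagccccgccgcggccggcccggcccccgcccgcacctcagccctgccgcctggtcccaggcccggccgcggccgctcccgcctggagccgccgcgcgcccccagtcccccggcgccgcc
The H2afz window holds 3 CCAAT matches and the H1fx window none, so the pair do not share this motif here. RefSeq promoters were matched for 9 of the 10 variants, all but H2afx, and each motif was sought on both strands and counted separately where matches overlapped. CCAAT was found in 6 of 9, against 37.4% of all 32851 promoters of the same length, with 4 matches each in H3f3b and H2afv, 3 in H2afz, 2 in Cenpa and 1 each in H3f3a and H2afy2. The GC box GGGCGG was found in 7 of 9 (35.7% of all), TTTGAA in 2 of 9 (17.9%) and TATAAA in 1, H3f3b (13.6%). The E2F motifs TTTCCCGC and TTTGGCGC were in none of the 9 windows and in 1.07% and 0.514% of all. The 3 windows without CCAAT were those of H1fx, H1f0 and H2afy, and it was present in H2afz and in the 5 variants with log2 ratios nearest to 0. A link between the motif and the log2 ratio was not tested.

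The 64 replication-dependent histone genes of the clusters are the other source of histone mRNA. Of the 43 that reached an FPKM of 1, 39 were lower and 4 higher, and 20 were at least 1.5-fold lower, with a median log2 ratio of -0.47. Of all tested genes 6.46% were at least 1.5-fold lower. Most of the 43 were low, with a median FPKM of 3.397 in the control library. With equal sums their median log2 ratio was -0.306 and 18 were at least 1.5-fold lower. That count was 15 with a pseudocount of 1, 17 with length corrected, and 8 with a filter at an FPKM of 5. The filter leaves fewer genes, and their median log2 ratio was -0.52. Hist2h3b had an FPKM of 5.68 and 2.16 (log2 ratio -1.36) and Hist1h2bk 6.98 and 3.04 (-1.17), and at the other end, among genes with an FPKM of at least 5, lay Hist1h1c, given above, and Hist1h4i, which had 20.3 and 19.8 (-0.04). Whether RNA was selected for poly(A) is not stated, and the level of these genes depends on it. These transcripts are short, with a median of 534 bases, and with length corrected their median was -0.20.

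In RNA as captured here, the variants held most of the FPKM summed over variant and clustered H3 and H2A genes. Cenpa, H3f3a and H3f3b held 96.7% of the summed FPKM of H3 genes in the control library and 97.7% in the other, beside 12 clustered H3 genes that summed to 46.5 and 28.3. The 5 H2A variant genes held 99.0% and 99.2% of their sum with 17 clustered H2A genes, which summed to 25.4 and 13.95. H2afj, another H2A variant gene described below, had an FPKM of 16.7 and 11.5 and was left out of these sums. These shares hold within a library but count RNA as it was captured, which the missing statement on poly(A) selection leaves undefined. Of the 64 clustered histone genes 7 were at 0 in both libraries. How fragments that match more than 1 clustered gene were assigned is not stated, and the clustered sums depend on it.

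Of the genes around histone supply, the 10 for replication-coupled assembly had a median log2 ratio of -0.04 (0.13 with equal sums) and the 12 for histone mRNA 3′ processing had -0.11 (0.065 with equal sums), none past 1.5-fold in either. Slbp, which binds the stem-loop, had an FPKM of 86.5 and 65.0 (log2 ratio -0.41), and the nuclease gene Cpsf3 had 51.9 and 39.9 (-0.38). Npat, the activator of the histone clusters, had 10.5 and 11.7 (0.16), and Lsm11 of the U7 particle had 6.72 and 7.14 (0.09). In assembly, Supt16 and Ssrp1 of the FACT complex had log2 ratios of -0.31 and -0.18, whereas Rbbp7 and the CAF-1 gene Chaf1a had 0.26 and 0.19.

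**Figure D4:**
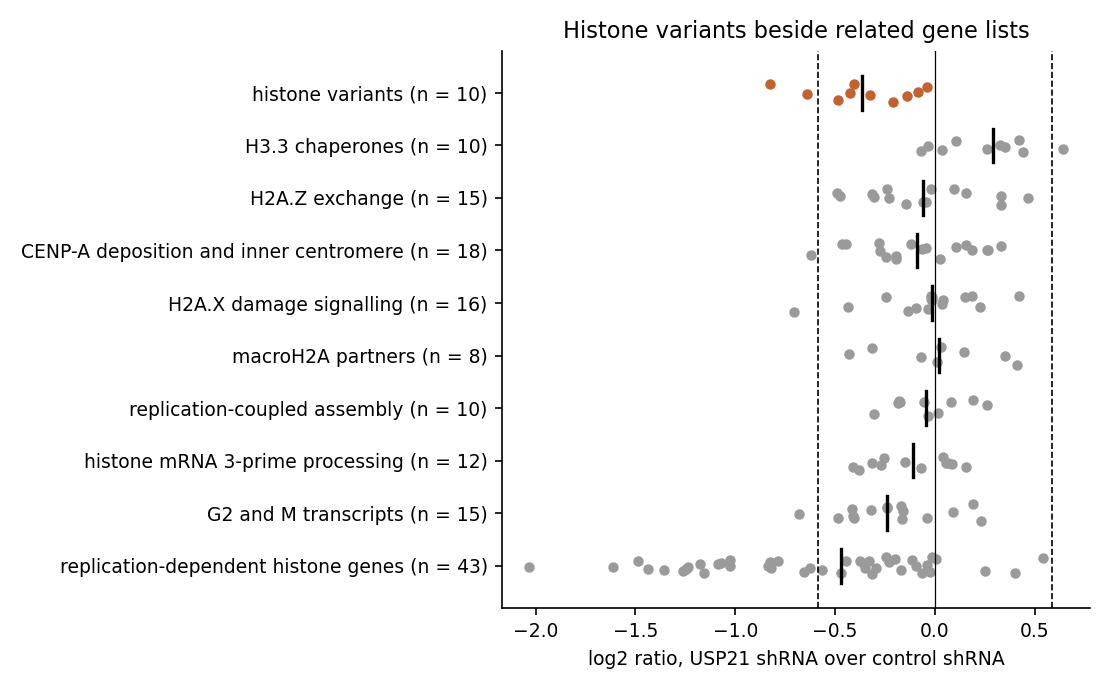
Log2 ratio of each gene with an FPKM of at least 1 in the histone variants and the lists of their partners, 1 point per gene, with a bar at the median of each list and dashed lines at 1.5-fold. The variants have a median of -0.37, the H3.3 chaperones 0.29, and the replication-dependent histone genes -0.47.

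Transcript length moved with the log2 ratio across all genes. Over 11378 tested genes with a GENCODE transcript, Spearman's rho between the log2 ratio and length was 0.32, a description across genes that share both libraries. In the quintile of shortest transcripts, up to 1616 bases, the median was -0.16 and 69.2% of genes were lower, and in the quintile of longest transcripts it was 0.17. The variants have short transcripts, from 1069 bases for H2afz to 2841 for H3f3a, and 4 of them were in the quintile of shortest transcripts and 5 in the next, whose median was -0.06. After subtraction of the trend 9 of 10 variants were lower, with a median of -0.34. Only H1fx remained past 1.5-fold, where 5.95% of the 11378 genes were at least 1.5-fold lower and 7.10% higher. H2afz was then at -0.48 and H2afv at 0.041.

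**Figure D5:**
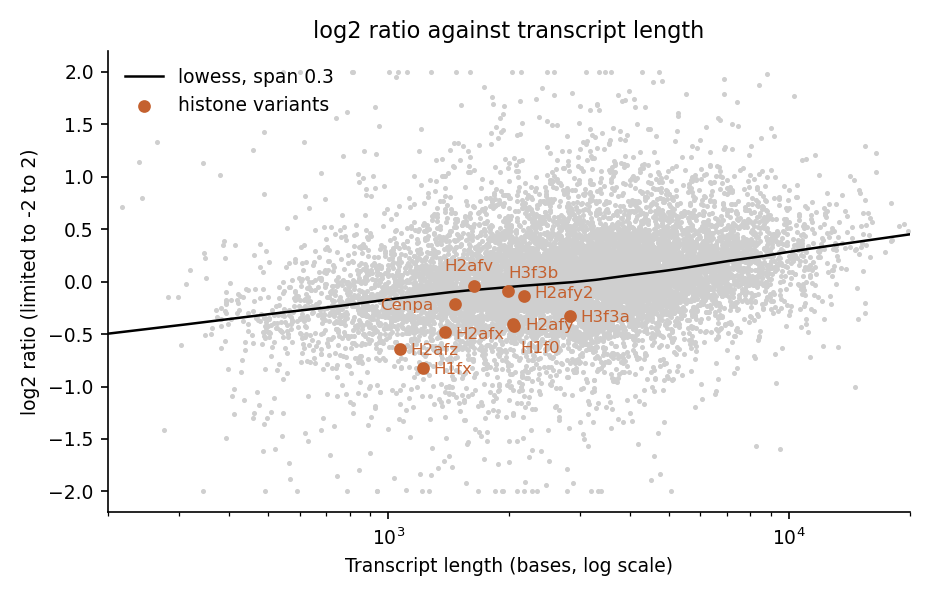
Log2 ratio, limited to between -2 and 2, against transcript length on a log axis for 11378 tested genes, with a lowess curve and the 10 histone variants marked. All variants but H2afv lie below the curve, H1fx farthest.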

How the data were processed

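RNA-seq of E14 mESCs was analysed from 2 libraries, 1 per group. The authors deposited 1 FPKM per gene symbol and library. The submitters' processing notes name CASAVA 1.8.2, TopHat2 2.0.14, Cufflinks 2.2.1 and mm9 without roles. The annotation, strand setting, RNA selection and treatment of multiply mapped reads are not given in the sources used here, and the paper's methods do not describe this sequencing. The FPKM values give no fragment counts, so absolute depth is unknown and no interval or floor was computed.

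The log2 ratio used a pseudocount of 0.1, which understates the change of low genes, and genes with an FPKM of at least 1 in at least 1 library were counted. The members and gene lists were chosen with earlier results of these data known. From each list, and from the replication-dependent histone genes, the genes named were, at an FPKM of at least 5, those with the 2 highest and the 2 lowest log2 ratios, besides all members, Usp21 and cell markers. Eya1, Atm, Atr, Prkdc, Hjurp and the clustered H1 genes other than Hist1h1c were named outside this rule after their values were seen, and not every gene the rule picks is given. Length was corrected with a lowess curve (span 0.3). Other settings tried were a pseudocount of 1 or 0.01, an FPKM filter of 5, of 20 or none, and equal sums. Setting the median log2 ratio of the tested genes to 0 and folds of 1.25 and 2 were also tried.

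Transcripts, coding sequences, gene positions and 31-base words came from GENCODE M21 on GRCm38, with 1 transcript per gene, and promoters from RefSeq on GRCm38.p6. The files were made on mm9 and hold no coordinates used here. Scripts ran under Python 3.11.15 with pandas 2.3.3 and numpy 2.4.6 for tables, statsmodels 0.14.6 for the curve, scipy 1.17.1 for correlation and matplotlib 3.10.9 for plots, and were tested on simulated data.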

Additional observations from a re-analysis of the deposited data

How the results depend on the processing

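With 1 library per group no replicate could be left out, and no paired analysis was possible because neither group has replicates. Of 50 alternative log2 ratios of single variants 44 kept their direction and their side of 1.5-fold. The exceptions were H2afz, at -0.47 with equal sums and -0.48 with length corrected, and H2afv (0.14), H3f3b (0.089) and H2afy2 (0.037) with equal sums and H2afv (0.041) with length corrected, which lay above 0. The number of variants at least 1.5-fold lower was 1 with equal sums and 1 with length corrected, 0 at a fold of 2 and 6 at the smaller alternative fold. With the median log2 ratio of the tested genes set to 0 that number was 2, and all 10 variants were lower. At that setting 6.52% of all tested genes were at least 1.5-fold lower and 7.75% higher. With length corrected these shares were 5.95% and 7.10%. The share of all tested genes past the fold, lower and higher, was 4.29% and 5.09% with a pseudocount of 1, 3.97% and 14.1% with equal sums, 2.03% and 2.30% at a fold of 2 and 16.9% and 19.0% at the smaller fold, and 3.80% were higher among genes with an FPKM of at least 20, a filter chosen after seeing the data. Equal sums add a nearly constant amount to the log2 ratios, except at low FPKM where the pseudocount matters. This moves the split between lower and higher. Of 109 alternative list medians 95 kept their direction and side. The median of the clustered linker H1 genes was 0.40 with a filter at an FPKM of 5, where only Hist1h1c is left, and that of the fibroblast markers was 0.0059 with no filter, where genes near 0 enter.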

Other observations

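Other replication-independent or tissue-specific histone variants and sperm chromatin proteins were nearly silent in both libraries, with H2afj as the exception. Of 12 such genes in the files, among them the oocyte linker gene H1foo, the testis genes H1fnt, Hils1 and Hist1h1t, and the sperm chromatin proteins Tnp1 and Prm1, which are not histones, 6 were listed at 0 in both libraries and only H2afj reached an FPKM of 1. H2afj encodes H2A.J, a replication-independent H2A variant expressed in many tissues. Its FPKM was 16.7 in control and 11.5 in knockdown, a log2 ratio of -0.53, or -0.46 with length corrected, and it was below H2afy2 in level. H2A.J was not part of the set of 10.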
